A study of Homo sapiens with 91 samples.

Results

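The 40 genes described here encode microtubule motors: 33 kinesins and 7 subunits of cytoplasmic dynein. They were taken by name from a list of kinesin and cytoplasmic dynein genes, with CENPE left out, out of 57820 gene identifiers in each file. The list is a selection, and other motor genes with few barcodes, such as DYNC1I1 and KIF4B, are not in it. The 40 genes were divided by textbook role into 12 mitotic kinesins, 15 transport kinesins, 6 other kinesins and the 7 dynein genes. The genes and this division were chosen with earlier results of these data known. Of the 40, 39 passed a minimum mean level of 10 CPM (exonic barcodes scaled to a common library size) over all libraries, as did 9992 genes in all. KIFC3 was the only motor below it.

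Kinesins and dynein are enzymes that burn ATP to move along microtubules, most kinesins toward the growing plus end and dynein toward the minus end. Mitotic kinesins build the spindle, move chromosomes and complete cytokinesis, and are made mostly by dividing cells as they approach mitosis. Transport kinesins and dynein carry vesicles, organelles, proteins and RNA through the cytoplasm at all stages of the cell cycle, and several are best known from neurons. Many genes that peak late in the cell cycle carry a CCAAT box and a cell cycle genes homology region, or CHR, near their start. Both elements take part in the timing of their transcription.

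HEK293T is an established human embryonic kidney line that carries the SV40 large T antigen and divides rapidly. MATQ-seq amplifies total RNA from single cells and attaches random barcodes to the cDNA before amplification. A count of distinct barcodes is thus a count of barcoded cDNA molecules, which need not equal the number of transcripts. The libraries comprised 38 single cells of 1 HEK293T clone and 10 averaged aliquots, each made by pooling single-cell material and splitting it again into amounts near that of 1 cell. Both groups stem from the same clone, the labels name no treatment, and the other 43 of the 91 samples were not analysed here. The aliquots therefore carry the error of the method together with that of splitting the pool. The cells, which were not split, carry the error of the method together with the differences between cells. The part due to splitting was not measured, so the aliquots are not a pure measure of the method's error. The labels do not say whether cells came from separate cultures, so p-values measure only the spread between these libraries.

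The promoters of the motors are shown first, because the groups differed in what these windows hold. RefSeq windows of 250 bases before to 50 after the annotated start (build GRCh38.p14) were matched for 33 of the 40 genes. KIF5A, KIF13B, KIF21B, KIFC3, KIF26B, KIF27 and DYNLL2 were not matched. Where a gene had several listed starts, a match in any of its windows was counted. The CHR was searched as TTTGAA, its variants as TTTAAA and TTCGAA, and the CCAAT box as CCAAT, each on both strands, so that TTCAAA and ATTGG are the same elements read on the opposite strand. In the motors no match of one motif overlapped a match of another. The windows below give 100 bases before to 50 after the start, 5′ to 3′ on the gene's own strand, with CHR or variant and CCAAT box in capitals. They were chosen after the matches were seen: 6 mitotic kinesins with both kinds of element and, for contrast, a transport kinesin and the dynein heavy chain with neither.
KIF20A (chr5:138179012-138179161, plus strand): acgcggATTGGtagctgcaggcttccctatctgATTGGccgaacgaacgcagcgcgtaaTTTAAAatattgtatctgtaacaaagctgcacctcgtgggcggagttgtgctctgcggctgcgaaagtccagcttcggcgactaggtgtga
KIF14 (chr1:200620702-200620851, minus strand): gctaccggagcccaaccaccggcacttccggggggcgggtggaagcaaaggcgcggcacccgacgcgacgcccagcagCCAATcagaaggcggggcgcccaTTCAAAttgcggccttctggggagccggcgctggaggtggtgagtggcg
KIF11 (chr10:92593030-92593179, plus strand): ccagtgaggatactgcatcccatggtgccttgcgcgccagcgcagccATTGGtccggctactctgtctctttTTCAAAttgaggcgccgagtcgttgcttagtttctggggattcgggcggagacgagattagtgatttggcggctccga
KIF4A (chrX:70290004-70290153, plus strand): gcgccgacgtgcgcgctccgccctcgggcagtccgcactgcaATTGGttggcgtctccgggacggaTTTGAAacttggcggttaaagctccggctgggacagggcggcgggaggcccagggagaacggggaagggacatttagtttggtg
KIF18A (chr11:28108107-28108256, minus strand): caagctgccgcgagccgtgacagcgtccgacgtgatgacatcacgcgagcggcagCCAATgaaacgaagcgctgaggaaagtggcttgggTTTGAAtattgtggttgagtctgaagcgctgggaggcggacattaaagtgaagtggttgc
KIF23 (chr15:69414249-69414398, plus strand): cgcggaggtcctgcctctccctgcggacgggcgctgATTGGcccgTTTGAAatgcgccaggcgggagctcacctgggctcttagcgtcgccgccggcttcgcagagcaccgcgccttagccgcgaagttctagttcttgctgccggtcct
KIF1C (chr17:4997850-4997999, plus strand): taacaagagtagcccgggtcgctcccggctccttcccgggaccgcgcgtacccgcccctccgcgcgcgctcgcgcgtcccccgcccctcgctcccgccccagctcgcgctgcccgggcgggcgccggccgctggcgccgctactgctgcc
DYNC1H1 (chr14:101964473-101964622, plus strand): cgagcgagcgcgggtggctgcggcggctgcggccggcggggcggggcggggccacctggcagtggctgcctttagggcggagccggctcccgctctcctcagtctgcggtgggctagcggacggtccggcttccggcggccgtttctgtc

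TTTGAA was found in 9 of 12 mitotic kinesin promoters (75.0%), in 1 of 17 promoters of transport kinesins and dynein (5.88%) and in none of 4 promoters of other kinesins. The same letters occurred in 18.2% of the 27305 genes with a window and in 13.6% of the 7639 of these that were tested. The 3 mitotic kinesins without TTTGAA were KIF2C, KIF20A and KIF22, and each held a variant, at 3, 41 and 27 bases before the start. A variant was present in 5 of 12 mitotic kinesins, against 12.4% of tested genes. KIF5B, the ubiquitous conventional kinesin heavy chain, was the transport motor with TTTGAA, 140 bases before its start. A CCAAT box was found in 10 of 12 mitotic kinesins, all but KIF2C and KIF15, and in 7 of 17 transport and dynein genes, against 44.2% of tested genes. Both TTTGAA and CCAAT were present in 8 of 12 mitotic kinesins, against 5.69% of tested genes. A match describes these letters and is neither a binding site nor a cause of any level below.

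**Figure D1:**
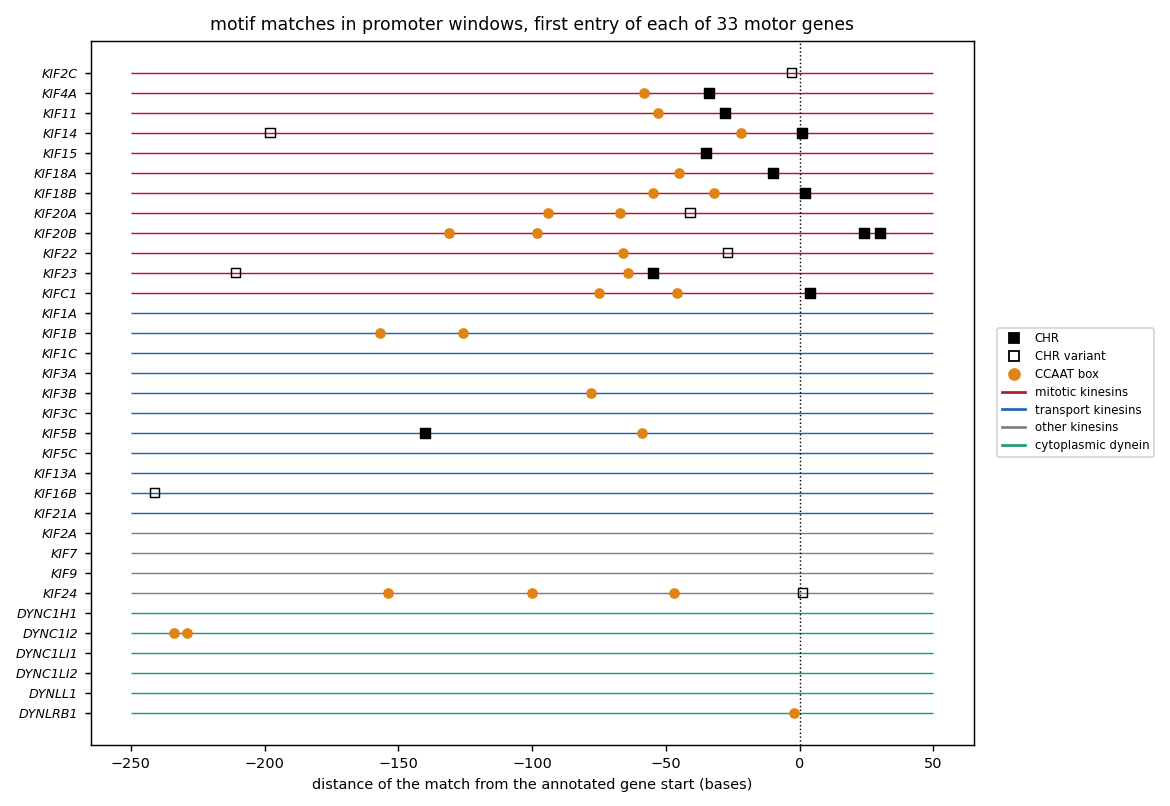
Motif matches in the first promoter window of 33 motor genes. The x axis is the distance from the annotated start in bases, each line is a gene coloured by group, squares mark the CHR (filled) or a variant (open) and circles the CCAAT box. In mitotic kinesins most matches sit within 100 bases of the start, and the lines of transport kinesins and dynein are mostly empty.

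The cells held 128322 to 326476 exonic barcodes (median 217070) and the aliquots 152542 to 275215 (median 173966), so that 1 barcode was worth 3.06 to 7.66 CPM in cells and 3.51 to 6.56 in aliquots. The motors together took 510 to 1924 barcodes of a cell and 629 to 1264 of an aliquot, a mean share of 0.443% and 0.448%. Intronic barcodes made up 32.7 to 66.8% of a cell's barcodes and 54.9 to 60.4% of an aliquot's. The HEK293-associated gene IRS4 averaged 935.3 CPM in cells and 1146 in aliquots, PAX2 only 6.887 and 5.778, and 6 markers of MCF10A cells, the other line named in the labels, together 2.88 and 0.5697, with KRT17 and KRT6A at 0. No library repeated another within sampling noise.

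The first question was whether any motor varied more between cells than between aliquots. The spread of each gene was tested with a negative-binomial likelihood-ratio test of separate dispersions in cells and aliquots against a shared dispersion, two-sided, with Benjamini-Hochberg adjustment over 9992 genes. It called 23 genes with the larger dispersion in cells (0.23%) and 1 with the larger in aliquots (0.01%). No motor was among them, and limma on absolute deviations, which called 0.03% of genes, called none either. At an unadjusted p under 0.05, 3 motors had the larger dispersion in cells, KIF20A, KIF14 and KIF1A, against 6.86% of all genes, and 1, KIF5A, had the larger in aliquots, against 2.38%. With limma the corresponding motors numbered 2 and 1, against 3.67% and 3.54%. A coefficient of variation (CV, the SD as a percent of the mean) larger in cells than in aliquots was seen in 11 of 12 mitotic kinesins, 7 of 14 transport kinesins, 2 of 6 other kinesins and 4 of 7 dynein genes. Over all tested genes the share was 56.7%. The median CV ratio was 1.35 for mitotic kinesins, 0.972 for transport kinesins, 0.967 for other kinesins, 1.01 for dynein and 1.05 for all genes.

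**Figure D2:**
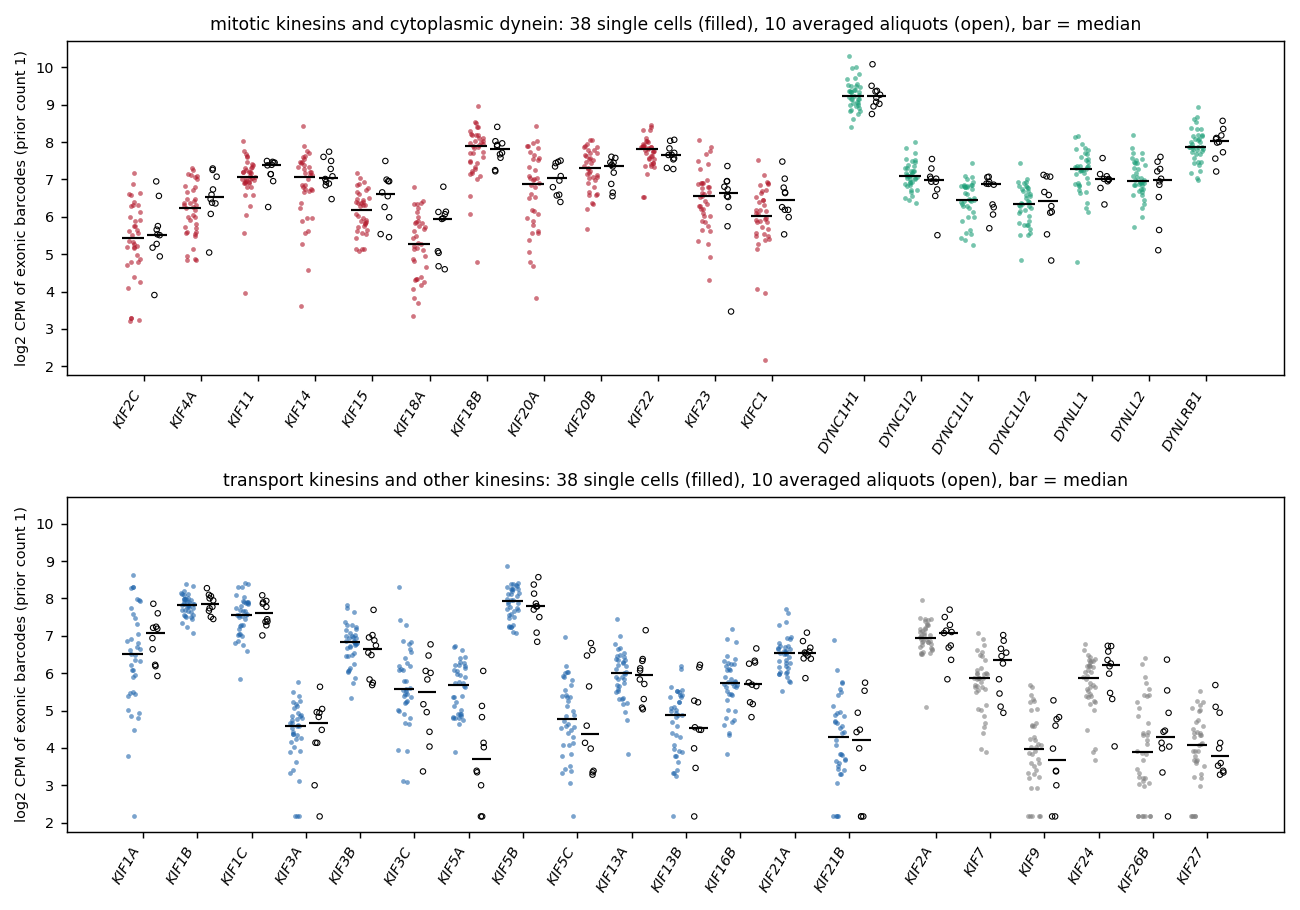
Level of each of the 39 tested motors in every library, as log2 CPM of exonic barcodes (prior count 1) on the y axis. Filled points are the 38 single cells, open points the 10 averaged aliquots and bars the group medians. KIF20A, KIF14 and KIF1A spread further in cells than in aliquots, and KIF5A has a lower median in aliquots than in cells.

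Among the mitotic kinesins, KIF20A, the motor that brings Polo-like kinase to the central spindle in cytokinesis, had the largest CV ratio of the motors, 2.28. It ranged from 9.723 to 339.5 CPM in cells with a median of 113.3, and from 79.76 to 176.8 in aliquots with a median of 126.2. The aliquots lay inside the range of the cells, 11 cells were above all aliquots and 14 below all. With 38 cells against 10 aliquots, some cells lie outside the aliquots even where the spread is alike. Ranges and such counts, here and below, are thus descriptions and no measure of extra variation between cells. Its means were alike at 121.8 ± 79.89 CPM (SD, n = 38) and 129.7 ± 37.26 (SD, n = 10). The dispersion test gave an unadjusted p of 0.0046 and an adjusted p of 0.278. BRD8 and CDC23 overlap KIF20A on the opposite strand, and the sources used here do not give the strand setting of the counting, so reads from the stretches they share cannot be assigned to either strand.

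KIF14, which works with the kinase CIT at the midbody, ranged from 7.665 CPM in cell 15 to 339.5 in cell 30 with a median of 130.3. Its aliquots ranged from 84.32 to 209.5 with a median of 127.8. In all, 10 cells lay below all aliquots and 3 above, with CVs of 52.66% and 28.2%, an unadjusted negative-binomial p of 0.023 and an adjusted p of 0.44. With cells 1 to 10 alone the log2 ratio of its dispersions was 0.48 in place of 2.66, with an unadjusted negative-binomial p of 0.816. KIF18B, a plus-end motor that shortens astral microtubules, had 22.99, 231.9 and 498.5 CPM as lowest, median and highest cell and 144.3, 219.3 and 334.7 in aliquots. Its lowest and highest values came from the same cells 15 and 30, and 7 cells lay below all aliquots and 4 above.

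KIF11, the plus-end motor that pushes spindle poles apart and is the target of several antimitotic inhibitors, spanned 11.19 to 255.4 CPM in cells with a median of 128.2. Its aliquots spanned 72.2 to 175.7 with a median of 162.5, and 5 cells were above them and 3 below. KIF15, which can take over from KIF11 in keeping the spindle bipolar, was the mitotic kinesin with the smaller CV in cells, 41.09% against 45.4%. It ran from 29.43 to 140.3 CPM in cells, with a median of 68.05, and from 39.38 to 175.7 in aliquots, with a median of 92.73. No cell exceeded its highest aliquot and 5 were below the lowest. KIFC1, a minus-end motor that bundles microtubules and clusters extra centrosomes, was at 0 in cell 15 and reached 177.4 CPM in cell 30, with a median of 60.32. In aliquots it spanned 41.72 to 173.6 with a median of 83.45, and 10 cells were below all of them.

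KIF4A, a chromosome-bound motor that also sets the length of the central spindle, had 24.31, 70.95 and 154.8 CPM as lowest, median and highest cell. Its aliquots had 28.49, 88.1 and 152.3, so the ranges nearly coincide. KIF22, which pushes chromosome arms away from the poles, had the smallest CV in cells of the 12, 26.73%. Its cells spanned 88.29 to 348.5 CPM around a median of 219.4, and its aliquots 150.6 to 262.5 around 197.1. KIF23, which with RACGAP1 forms centralspindlin, spanned 15.33 to 263 CPM in cells with a median of 88.75. Its aliquots spanned 6.549 to 159.5 with a median of 95.51, and no cell lay below all of them. KIF20B, a relative of KIF20A that acts in the completion of cytokinesis, had 46.73, 153.3 and 263.8 CPM in cells and 89.25, 160.9 and 190.3 in aliquots, with 12 cells above all aliquots. KIF2C, which removes tubulin from microtubule ends at centromeres instead of walking, had 4.818, 38.93 and 140.5 CPM in cells. Its aliquots had 10.5, 41.37 and 118.8, with CVs of 68.87% and 65.33%. KIF18A, which damps chromosome movements in metaphase, had 5.593, 34.42 and 106.7 CPM in cells and 19.69, 57.36 and 107.3 in aliquots, with 10 cells below all aliquots and none above.

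Added over the 12 genes, mitotic kinesin RNA ran from 467.6 CPM in cell 15 through a median of 1350 to 2646 in cell 30, a 5.66-fold range. In the aliquots the sum ran from 1297 to 1676 CPM with a median of 1446. The sum exceeded every aliquot in 7 cells and was under every aliquot in 18. The CV of the sum was 30.29% in cells and 9.04% in aliquots. The sum over the 15 transport kinesins behaved otherwise, with 947.8 to 1750 CPM in cells, 1083 to 1550 in aliquots and CVs of 10.9% and 12.08%. For dynein the sum was 1083 to 2219 CPM in cells and 1036 to 1925 in aliquots, with CVs of 17.22% and 15.49%. Aliquot 5 gave the highest aliquot sum of transport kinesins and of dynein, and the next highest were 1401 and 1510 CPM. The aliquot ranges and CVs of these sums thus lean on 1 library, and no setting left it out. The 6 other kinesins summed to 157.2 to 424 CPM in cells and 269.1 to 350.9 in aliquots, with CVs of 20.91% and 9.485%, and 18 cells lay below all aliquots.

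The next question was whether the motors followed the cell cycle. A G2/M score was made for each cell from 40 tested genes of a G2/M list of 41, by averaging their z-scores of log2 CPM, and a G1/S score likewise from 41 tested genes of a list of 43. No motor is in either list. Correlations below are Spearman rho over the 38 cells. They are descriptions with no test, since all cells share 1 clone, 1 method and a depth that differs from cell to cell. All 12 mitotic kinesins had a rho of at least 0.4 with the G2/M score, against 2.6% of tested genes. In order they were KIF14 at 0.767, KIF20A at 0.693, KIF2C at 0.674, KIF11 at 0.646, KIF23 at 0.603, KIF18A at 0.581, KIF4A at 0.557, KIF18B at 0.524, KIF22 at 0.48, KIFC1 at 0.457, KIF20B at 0.434 and KIF15 at 0.408. After thinning every library to 128322 barcodes, KIF15, KIF20B, KIF22 and KIFC1 fell under 0.4, which left 8 of 12. None of the 14 transport kinesins, the 6 other kinesins or the 7 dynein genes reached 0.4. At a share of 2.6%, lists of this size hold few or no such genes. The medians of transport kinesins, other kinesins and dynein were 0.094, 0.06 and 0.116, and the median over all genes was 0.018. With the G1/S score, 6 of 12 mitotic kinesins had a rho of at most -0.4, against 2.6% of genes, with a median of -0.431.

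**Figure D3:**
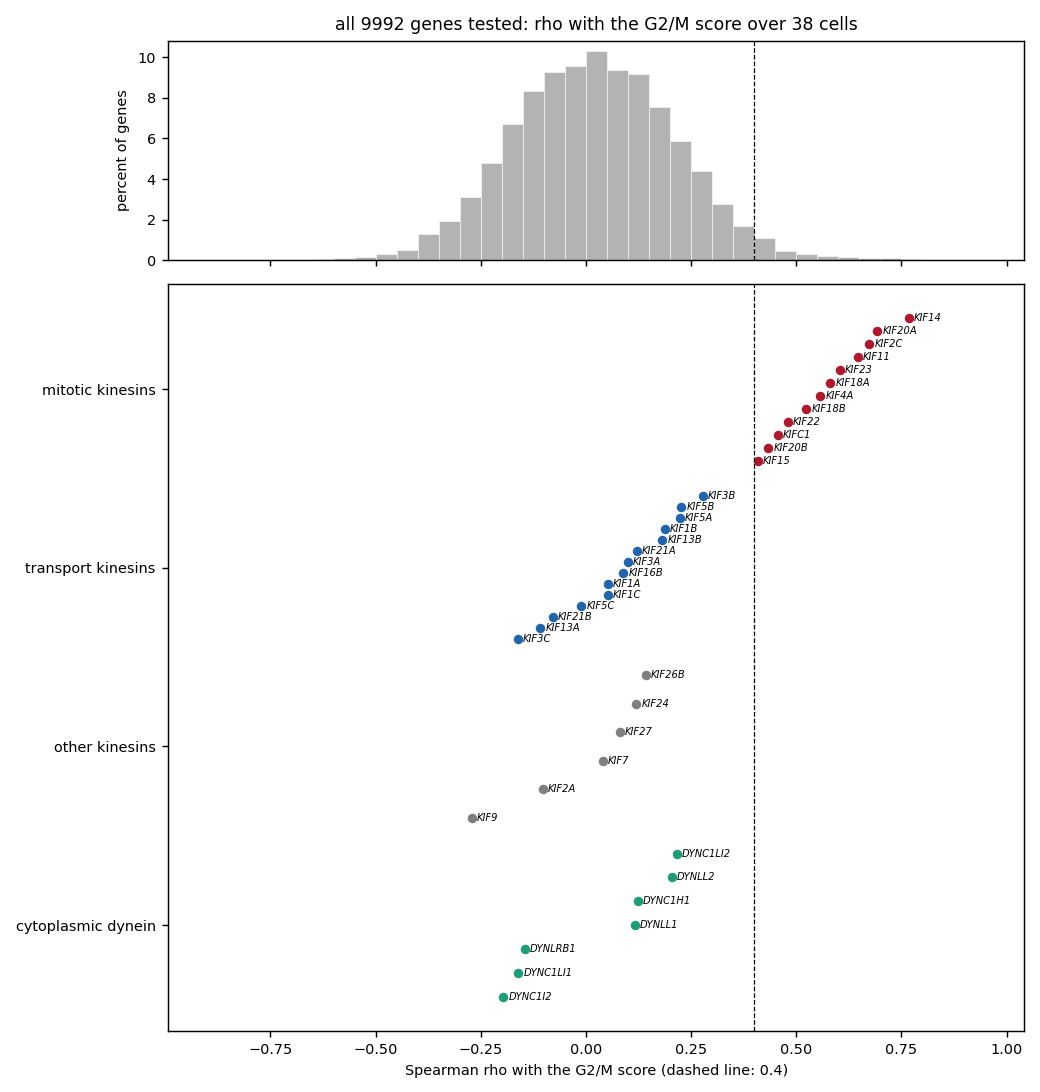
Spearman rho with the G2/M score over 38 cells. The upper panel is a histogram of all 9992 tested genes as a percent of genes, and the lower panel shows each tested motor by group. The 12 mitotic kinesins lie between 0.408 and 0.767 at or right of the dashed line at 0.4, and no other motor reaches it.

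The summed mitotic kinesin RNA had a rho of 0.889 with the G2/M score. The sums of transport kinesins and of dynein had 0.229 and -0.009. Over the 10 aliquots, scored among themselves, the mitotic, transport kinesin and dynein sums had a rho of 0.527, 0.697 and -0.321. Single genes of these groups had aliquot medians of 0.309, 0.212 and -0.152, against 0.006 over all genes. A relation to the score was thus also seen without whole cells, for both kinesin groups, and its cause was not tested. In cell 15, the smallest library, the mitotic sum rested on 61 barcodes while transport kinesins and dynein together held 406, or 3112 CPM. In cell 30 the mitotic kinesins held 865 barcodes and the transport and dynein genes 934. The mitotic sum had a rho of 0.118 with the transport and dynein sum over cells. It had a rho of 0.294 with the number of exonic barcodes, 0.026 with the intronic share and -0.101 with the cell number. The CV of the mitotic sum in cells was 3.35 times that in aliquots, and 2.89 times after thinning to equal depth. After thinning, the rho with the score was 0.872 for the mitotic sum, 0.041 for transport kinesins and -0.181 for dynein. For transport kinesins it rose when cells 15 and 32 were left out, as given at the end. The G2/M and G1/S scores had a rho of -0.699 over cells and 0.733 over the 10 aliquots, so over aliquots the scores rose together.

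**Figure D4:**
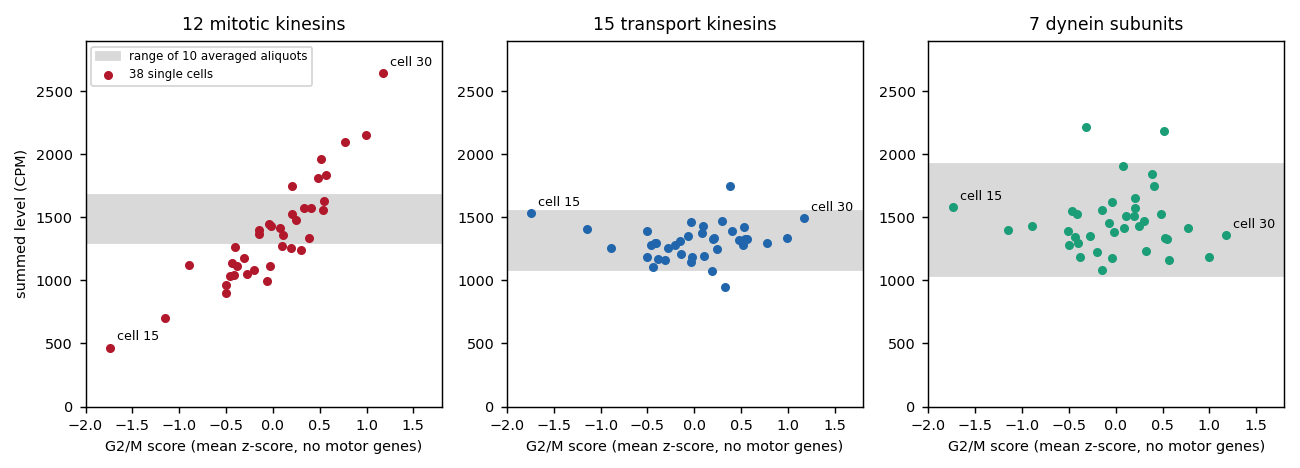
Summed level of 3 groups of motors in CPM (y axis) against the G2/M score of each of 38 cells (x axis, mean z-score without motor genes). The grey band is the range of the 10 averaged aliquots. The mitotic sum climbs from 467.6 CPM in cell 15 to 2646 in cell 30, while most cells stay in the band for transport kinesins and dynein. Aliquot 5 alone sets the top of both these bands, at 1550 CPM for transport kinesins (next 1401) and 1925 for dynein (next 1510).

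The mitotic kinesins also varied with one another. Over cells the mean pairwise rho was 0.359 in the 66 mitotic pairs, 0.016 in the 91 pairs of transport kinesins, 0.016 in the 21 dynein pairs and 0.003 over all pairs of tested genes. A rho of at least 0.4 was reached by 26 of the 66 mitotic pairs and by none of the transport pairs, against 1.3% of all pairs. At that share a set of 91 pairs holds few or no such pairs. Of 741 motor pairs 37 reached a rho of 0.4, and in 26 of these both genes were mitotic. The highest were KIF14 with KIF20A at 0.763, KIF11 with KIF14 at 0.676, KIF2C with KIF20A at 0.661 and KIF18A with KIF18B at 0.644. KIF20B with KIF3B, a subunit of the kinesin-2 that drives transport in cilia, was the highest pair across groups at 0.617. Over the 10 aliquots, where the cells' differences were pooled, the mean of the mitotic pairs was 0.028, and 13.6% of them reached 0.4 against 12.4% of all gene pairs.

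**Figure D5:**
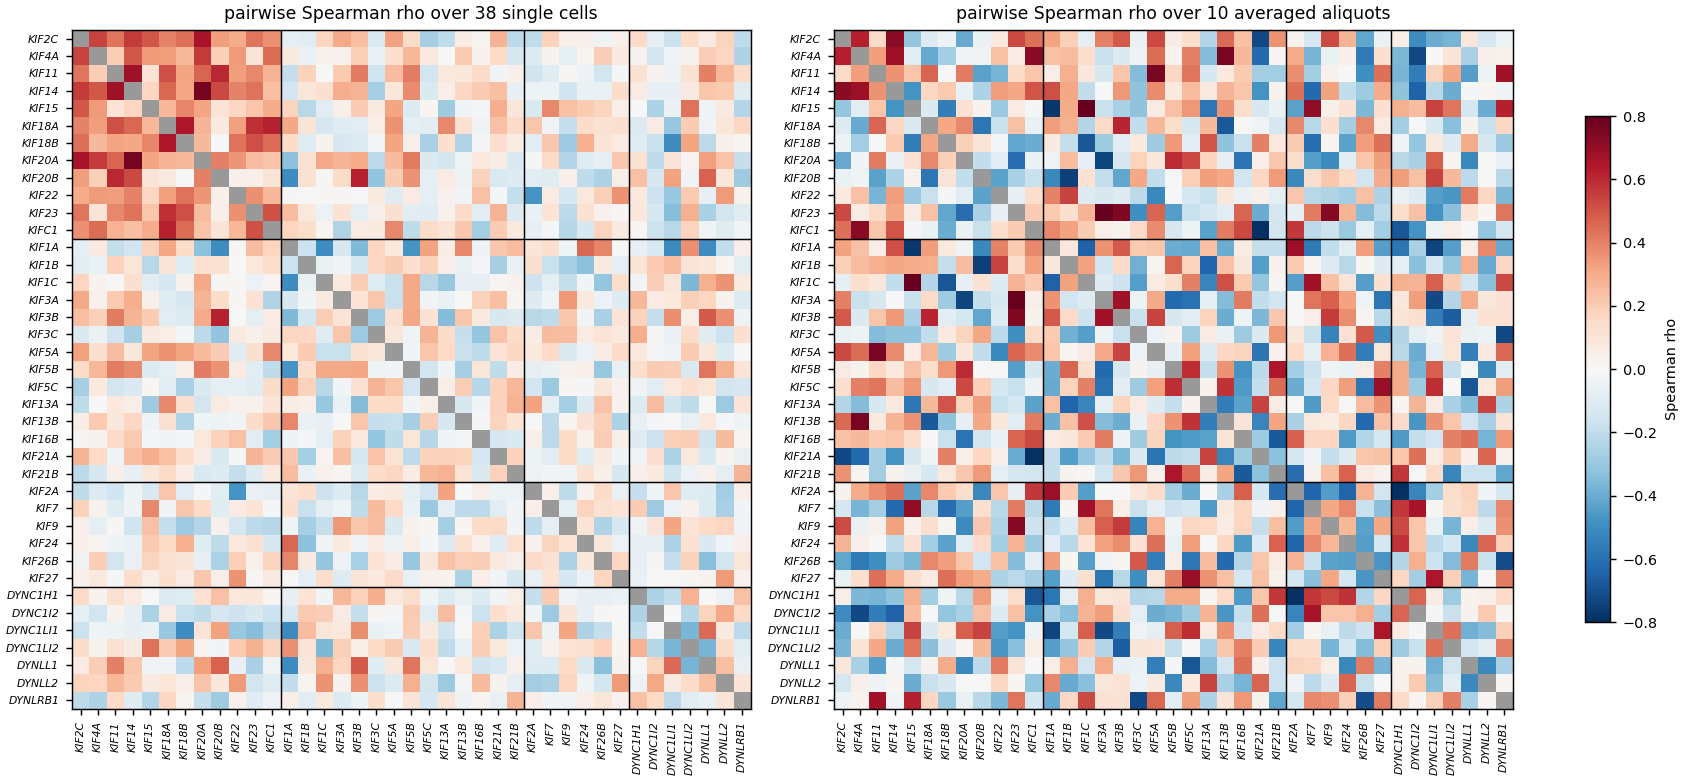
Pairwise Spearman rho between the 39 tested motors over 38 single cells (left) and 10 averaged aliquots (right), with black lines between mitotic kinesins, transport kinesins, other kinesins and dynein. Colour runs from -0.8 to 0.8. The mitotic block at the top left of the left panel has a mean of 0.359, and the same block over aliquots a mean of 0.028.

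Partners of the mitotic motors were described from a list of 14 genes. None of them is in the G2/M list behind the score. None was called, against 0.23% and 0.01% of tested genes in the 2 directions. Of the 14, 11 had a rho of at least 0.4 with the G2/M score, against 2.6% of tested genes, and their median was 0.644 against 0.018. PLK1, the kinase that KIF20A carries, had 102, 413.8 and 869 CPM as lowest, median and highest cell and 311.4, 435.7 and 526.3 in aliquots, so that cells lay on both sides of all aliquots. Its dispersion test gave an unadjusted p of 0.000181 and an adjusted p of 0.0606, the smallest of the list, and its rho was 0.893. TPX2, which activates Aurora A on the spindle, had 76.65, 315.2 and 593.3 CPM in cells and 233.6, 305.2 and 425.1 in aliquots, a negative-binomial adjusted p of 0.287 and a rho of 0.747. The mean rho between a mitotic kinesin and a partner was 0.358 over 168 pairs.

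Intronic barcodes, which come mostly from unspliced RNA, were examined in the same cells. Of the 12 mitotic kinesins 11 had enough of them, and KIF20A, with 6.17% of its barcodes in introns, did not. Their intronic levels had a median rho of 0.354 with the G2/M score, from 0.145 for KIF4A to 0.562 for KIF14. KIF14 alone reached 0.4, against 1.91% of 12439 genes, whose median was 0.022. The medians for transport kinesins, other kinesins and dynein were -0.022, 0.124 and 0.21. No motor was called in the negative-binomial dispersion test on intronic barcodes, against 0.0884% of genes. At an unadjusted p under 0.05 it marked 1 mitotic kinesin, 1 transport kinesin and 1 dynein gene, against 10.5% of genes.

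Among the transport kinesins, KIF1A, a carrier of synaptic vesicle precursors in neurons, had the largest CV ratio, 1.93. Its cells ran from 0 in cell 17 through a median of 86.13 to 390.9 CPM in cell 15, and its aliquots from 56.21 through 129.8 to 227.5. KIF1A was above every aliquot in 7 cells and below every aliquot in 12. The CVs were 85.2% and 44.08%, with an unadjusted negative-binomial p of 0.0232 and an adjusted p of 0.441. The unadjusted p was 0.0752 after thinning and 0.0698 with cells 1 to 10 alone, in the same negative-binomial test. Its rho with the G2/M score was 0.052. KIF1B and KIF1C, which carry mitochondria or vesicles, were steadier than KIF1A in cells. KIF1B had the smallest CV of all motors in cells, 19.57%, with 131.2, 223.7 and 330.1 CPM in cells and 170.3, 228.7 and 305.3 in aliquots. KIF1C had 53.48, 185.2 and 335.6 CPM in cells and 124.4, 192.2 and 267 in aliquots. Its CVs were 34.98% in cells and 24.07% in aliquots, a ratio of 1.45.

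The kinesin-1 heavy chains, which pair with light chains to carry many cargoes, are KIF5A, KIF5B and KIF5C, the first and last best known from neurons. KIF5A was the only motor with means at least 2-fold apart, 49.09 ± 24.45 CPM (SD, n = 38) in cells and 15.65 ± 19.17 (SD, n = 10) in aliquots, a ratio of 3.14. A mean at least 2-fold higher in cells was found in 1.48% of tested genes, and one at least 2-fold higher in aliquots in 0.56% and in no motor. In cells it ran from 10.48 to 101.8 CPM with a median of 47.32. In aliquots 1 to 10 it was 62.25, 3.513, 30.38, 13.1, 23.84, 0, 11.72, 5.697, 0 and 5.987 CPM, each resting on 11 barcodes or fewer. The groups overlapped, with 13 cells above all aliquots and 26 above all but aliquot 1. No cell could lie below all aliquots, since 2 of these were at 0. The dispersion test gave an unadjusted p of 0.0169 and an adjusted p of 0.413, larger in aliquots. Its intronic level was 20.3 CPM in cells and 15.8 in aliquots, so the gap of exonic barcodes was not matched in introns.

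KIF5B had 130.9, 237.9 and 461.1 CPM in cells and 110.1, 216.4 and 375.5 in aliquots, and the ranges overlapped over most of their length. Per kilobase of all annotated exons, the level of KIF5B in cells was 41.1 ± 12.5 CPM (SD, n = 38), that of KIF5A 7.84 ± 3.91 and that of KIF5C 3.28 ± 2.63. The intervals of 1 SD of KIF5A and KIF5C overlapped, and KIF5B stood above both. KIF5C ran from 0 to 121.5 CPM in cells with a median of 23 and from 5.25 to 107.3 in aliquots with a median of 16.39.

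The kinesin-2 subunits were uneven. KIF3B had 35.6, 109.2 and 221.2 CPM in cells and 46.87, 95.9 and 202.7 in aliquots. KIF3C ran from 4.086 to 310.1 CPM in cells with a median of 42.83, the maximum in cell 32, and from 5.858 to 104.8 in aliquots with a median of 42. KIF3A had a mean below 20 CPM and was seen in 35 of 38 cells. Of the remaining transport kinesins, KIF21A, which slows microtubule growth at the cell cortex, had 41.92, 87.81 and 204.5 CPM in cells and 53.88, 88.64 and 131.3 in aliquots. Its CVs were 40.05% and 22.65%, with an unadjusted negative-binomial p of 0.0694 and an adjusted p of 0.589. KIF13A, which moves recycling endosomes, had 9.732, 59.45 and 171 CPM in cells and 28.3, 57.58 and 137.5 in aliquots. KIF16B, an early endosome motor, had 9.714, 48.65 and 141.5 in cells and 23.84, 48.31 and 96.85 in aliquots. KIF13B, a carrier of membrane cargo, had 0, 24.9 and 68.17 CPM in cells and 0, 18.47 and 70.3 in aliquots, with 1 cell and 1 aliquot at 0. KIF21B was seen in 34 cells with a median of 15.26 CPM. KIFC3, below the level filter, was seen in 24 of 38 cells and 5 of 10 aliquots, from 0 to 54.98 CPM in cells with a median of 3.61.

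Of the 6 other kinesins, KIF2A, a microtubule depolymerase used in interphase and at spindle poles, was the highest. It had 29.75, 119.2 and 243.5 CPM in cells and 52.7, 131.5 and 203.5 in aliquots. KIF7, a regulator of Hedgehog signalling at the tip of the cilium, had 10.48, 53.61 and 130.1 CPM in cells and 26.2, 77.8 and 125.3 in aliquots. KIF24, a centriolar kinesin that limits cilium formation, had 8.278, 54.46 and 105.3 CPM in cells and 11.97, 70.23 and 101.9 in aliquots. For both, the cells covered the range of the aliquots. KIF9, KIF26B and KIF27 had cell medians of 11.1, 10.29 and 12.52 CPM and were seen in 33, 31 and 33 of 38 cells. IPO11 and DIMT1 overlap KIF2A, TICRR overlaps KIF7 and UBAP1 overlaps KIF24.

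Cytoplasmic dynein was present with all 7 listed subunits in every library. DYNC1H1, the heavy chain that holds the motor domain, had the highest level of the motors before correction for length. It had 335, 600 and 1260 CPM as lowest, median and highest cell and 425.7, 594.3 and 1079 in aliquots. The CVs were 29.4% and 29.01%, and 1 cell lay above all aliquots and 3 below. DYNC1I2, the intermediate chain that binds dynactin, had 78.74, 131.9 and 253.2 CPM in cells and 41.01, 121.7 and 182.3 in aliquots. The light intermediate chains, which bind cargo adaptors, had overlapping ranges and a rho of -0.365 with each other over cells. DYNC1LI1 had 33.78, 83.37 and 167.7 CPM in cells and 47.25, 112.4 and 130 in aliquots, and DYNC1LI2 had 24.35, 77.28 and 168.9 in cells and 23.95, 82.42 and 134.7 in aliquots.

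The light chains DYNLL1, DYNLL2 and DYNLRB1 had CVs in cells of 36.88%, 36.89% and 31.99%. Those of DYNC1LI1 and DYNC1LI2 were 35.17% and 36.78%. DYNLL1, a small subunit that also serves many proteins outside dynein, had 22.99, 150 and 283 CPM in cells and 75.95, 123.8 and 185.6 in aliquots, with 9 cells above all aliquots and 3 below. Its CV ratio of 1.69 was the largest of the dynein genes, with an unadjusted negative-binomial p of 0.0699 and an adjusted p of 0.59. DYNLL2 had 48.62, 119.6 and 287.3 CPM in cells and 29.93, 122 and 189.9 in aliquots. DYNLRB1, the roadblock light chain, had 121.7, 229.8 and 482.9 CPM in cells and 143.7, 258.9 and 374.9 in aliquots. It was the only motor whose level had a rho of 0.4 or more in size with the cell number, -0.421, against 6.87% of genes.

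Per kilobase of all annotated exons the order of dynein levels in cells was DYNLRB1 at 99.5 ± 31.8 CPM (SD, n = 38), DYNLL1 at 51.3 ± 18.9, DYNC1I2 at 29.3 ± 8.13, DYNLL2 at 19.5 ± 7.2, DYNC1H1 at 17.3 ± 5.07, DYNC1LI1 at 14.1 ± 4.96 and DYNC1LI2 at 9.72 ± 3.58. From DYNLL2 to DYNC1LI2 each level lay within 1 SD of the level above it, that SD being of the higher gene. The order depended on the length used. Per kilobase of the principal coding transcript, a length tried after the first values were seen, DYNC1LI1 had 34.5 CPM and DYNC1H1 31.8 and both stood above DYNLL2 at 19.5, while DYNLRB1, DYNLL1 and DYNC1I2 remained the highest, in that order.

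None of the adaptors and regulators that transport motors work with was called, against 0.23% and 0.01% of tested genes in the 2 directions. Of 16 cargo adaptors none had a rho of at least 0.4 with the G2/M score, against 2.6% of genes, a share at which lists of this size hold few or no such genes. TRAK1, which links kinesin-1 and dynein to mitochondria, had 77.28, 124.8 and 178.7 CPM in cells and 77.49, 121.4 and 288.1 in aliquots, the larger dispersion in aliquots, and a negative-binomial adjusted p of 0.394. HOOK1, a dynein activating adaptor, had 23.15, 88.02 and 213.9 CPM in cells and 53.16, 72.83 and 113.2 in aliquots, with an adjusted p of 0.602 in the same negative-binomial test. Of 15 dynactin and regulator genes 13 were tested and none reached a rho of 0.4, read against the same share. CAPZB, the actin capping subunit that closes an end of the dynactin filament, had 107.5, 205.5 and 331.5 CPM in cells and 140.6, 171.3 and 210.8 in aliquots, with a negative-binomial adjusted p of 0.4. DCTN5, a subunit of the pointed end of dynactin, had 53.65, 141.4 and 346.8 CPM in cells and 125.7, 157.5 and 212.7 in aliquots, with a negative-binomial adjusted p of 0.483.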

How the data were processed

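Exonic and intronic random barcodes and reads were counted per gene for a HEK293T clone in 38 single cells and 10 averaged aliquots, grouped by the labels. The deposited tables hold whole-number counts, not normalized, for 57820 identifiers, made by the authors with TopHat and HTSeq on hg19, per the submitters' processing notes. The sources used here give neither versions nor strand setting. Exonic barcodes were the main measure, since they count cDNA molecules before amplification.

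CPM values used TMM scaling (edgeR 4.0.16), and a gene was tested where its mean reached 10 CPM. Dispersions of cells and aliquots were compared gene by gene with a negative-binomial likelihood-ratio test on 60 dispersions from 0.001 to 20 (Python 3.11.15, numba 0.67.0), and limma 3.58.1 in R 4.3.3 and size factors of DESeq2 1.42.0 were alternatives. The procedure was tested on simulated data. Mean levels were compared as values only. The members, the lists and their division into roles were chosen with earlier results of these data known. Named by rule were all members, with full values where the mean was at least 20 CPM, and the 2 genes of smallest p in each of the 3 lists of partners, adaptors and dynactin. Gene lengths came from GENCODE release 29 on another build, as lengths only: the union of all annotated exons, which matches counting over exons. The principal coding transcript was added as a second length after the exon-union values had been seen. Cell and aliquot numbers did not pair the libraries.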

Additional observations from a re-analysis of the deposited data

Results flagged for a closer look

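A sample was looked at again where the highest or lowest of the 10 aliquots stood apart from its nearest neighbour by more of the group's range than Dixon's criterion allows. Of 43 groups of aliquots 6 were so marked, and chance marks about 1 in 20. Aliquot 5 was high for KIF18A at 107.3 CPM (next 65.85, median 57.36), for KIF3B at 202.7 (next 125.3, median 95.9) and for DYNC1H1 at 1079 (next 722, median 594.3). The summed dynein level of aliquot 5 was 1925 CPM (next 1510, median 1423), of which DYNC1H1 is the main component. Aliquot 1 was high for KIF5A at 62.25 CPM (next 30.38, median 8.852), and aliquot 4 for KIF13A at 137.5 CPM (next 78.76, median 57.58).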

How the results depend on the processing

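No motor was called under any alternative run. The count of all genes called with the larger dispersion in cells, 23 as reported, was 47 on exonic reads, 10 on intronic barcodes, 6 with cells 1 to 10 alone and 0 by limma on absolute deviations. The count with the larger dispersion in aliquots, 1 as reported, was 3 on exonic reads, 0 without a level filter, 0 with cells 1 to 10 alone, 2 with the cell-number trend removed and 3 by limma. With cells 1 to 10 alone limma called 0 and 0, without and with the replicate block. Cells and aliquots of the same number correlated between -0.038 and 0.033, so they share only a number. The dispersion ratio of KIF5A reversed on intronic barcodes, to a log2 value of 0.24, and the cause was not tested. With cells 1 to 10 alone the log2 dispersion ratio of KIF14 was 0.48 in place of 2.66. The 12 mitotic kinesins at a rho of 0.4 with the G2/M score were 11 with DESeq2 size factors, on exonic reads or without cell 30, 10 without cell 15 or without cells 15 and 32, and 8 after thinning, with KIF15 lost in each. For these correlations, the settings that leave out a cell were added after the data were seen. No transport kinesin or dynein gene reached 0.4 in any. The rho of the summed transport kinesins with the score, 0.229 as reported, was 0.041 after thinning and 0.391 without cells 15 and 32, and that of the mitotic sum stayed between 0.869 and 0.889 in the settings run, all added after the data were seen. Levels per kilobase moved by more than 1 SD for 15 motors with the principal transcript as length, also added afterwards. Depth limits the low motors, since 1 barcode is worth up to 7.66 CPM in a cell.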
